A study of Mus musculus with 8 samples.

Results

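Gene ends were described in H3K27ac profiles of mouse embryonic stem cells through the regions that the deposited table annotates as 3'UTR or TTS, where TTS is a transcription termination site. These labels were taken as they stand, with no use of any measured value. They held 4455 of 112137 regions, 1943 labelled 3'UTR and 2512 labelled TTS, and the labels are kept apart throughout. H3K27ac was profiled by CUT&Tag, in which an antibody directs a transposase to the mark, with 2 libraries in each of 4 groups that the series describes as cultured, collected and prepared independently. Naive WT and formative WT cells are of the R1 line and wild type for MLL3 and MLL4. Naive DKO and formative DKO cells are labelled MLL3KO_MLL4KO, that is, without MLL3 (encoded by Kmt2c) and MLL4 (encoded by Kmt2d), and no line or clone is named for them in the sources used here. Naive cells were kept in LIF with 2 inhibitors, and formative cells were taken 63 hours after these were withdrawn. The design addresses how acetylation changes between these states and what part of it depends on MLL3 and MLL4.

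A mouse gene ends in a 3' untranslated region, which is transcribed but not translated, and the RNA is cut and polyadenylated a short way after a hexamer signal. RNA polymerase continues past the cut before it terminates, so a region labelled TTS mostly covers DNA just beyond the last exon. H3K27ac marks active enhancers and promoters. MLL3 and MLL4 place H3K4me1 at enhancers and recruit the acetyltransferases p300 and CBP. Gene ends can hold enhancers of the gene itself or of a neighbour. A known case is Fgf4, a growth factor whose signal through ERK moves cells out of the naive state, and whose enhancer lies in its own 3'UTR and is bound by SOX2 and OCT4 at adjacent motifs.

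Sequences were read from the GRCm38.p6 assembly, the same build as the mm10 coordinates of the table. The first window is shown because its region fell in formative WT and carries the pair of motifs for which the Fgf4 enhancer is known, a SOX motif (CTTTGTT) and a POU motif (ATGCTAAT) 3 bases apart, in capitals. It lies on the plus strand at chr7:144864388-144864417, inside the 3'UTR of Fgf4 and 826 bases before the annotated end.
Fgf4 3'UTR: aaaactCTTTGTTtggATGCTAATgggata
The pair was searched in this arrangement on both strands because of what is known of Fgf4. It occurred in 1 of the 4455 gene-end regions and in 2 of all 112137 regions, so it describes Fgf4 and not gene ends in general.

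The next 5 windows hold the motif of ESRRB, a nuclear receptor of the naive network (TCAAGGTCA, in capitals). They are shown because their regions fell in formative WT and no base of the window is soft-masked as a repeat in the assembly. The windows labelled by Mir295 and Mir5100 are in 3'UTRs, of Nlrp12 and Top3a by GENCODE, and the others lie past the ends of Erp29, of Polr3gl (named for Gm15441) and of Tbc1d8 (named for Rpl31).
Mir295 3'UTR, chr7:3222337-3222361, minus strand: aagatcacTCAAGGTCAtcctgtta
Mir5100 3'UTR, chr11:60740252-60740276, plus strand: aaggccacTCAAGGTCAgttctgct
Erp29 TTS, chr5:121444410-121444434, minus strand: attaggagTCAAGGTCAgcttcagt
Gm15441 TTS, chr3:96577292-96577316, plus strand: ggacaccaTCAAGGTCAagtgtgag
Rpl31 TTS, chr1:39370839-39370863, plus strand: gggtgtttTCAAGGTCAtagaggct
Another 7 windows of this kind among gene-end regions that fell contained soft-masked bases. Searched in the central 300 bases on both strands, TCAAGGTCA was in 0.823% of 3'UTR and 1.11% of TTS regions, beside 0.938% of all regions. Among regions that fell in formative WT the shares were 4 of 175 (2.29%) for 3'UTR, 9 of 291 (3.09%) for TTS and 1.73% of all 17677 that fell. The counts at gene ends are small, and a match is a description of letters only.

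The last windows show what a gene end is. They run from the poly(A) signal (AATAAA or its variant ATTAAA, in capitals) to the annotated last base of the transcript of genes described below. The label is that of the gene's region, while each window is the end of the 3'UTR itself. The windows of Sox2 and Pou5f1 lie before their regions, which start at chr3:34652497 and chr17:35510989.
Fgf4 3'UTR, chr7:144865221-144865243, plus strand: ATTAAAatgacaaacgtgtctgc
Nanog 3'UTR, chr6:122714610-122714633, plus strand: AATAAAacactaattttaccttta
Sox2 TTS, chr3:34652433-34652461, plus strand: AATAAAtttttgaaatatggacactgaaa
Pou5f1 TTS, chr17:35510748-35510772, plus strand: AATAAAgactgggacacacagtaga
Krt18 TTS, chr15:102031999-102032027, plus strand: AATAAAagttgagagctcactggacatca
Ssb TTS, chr2:69871819-69871846, plus strand: ATTAAAtactgatatgcataacatctga
One of these hexamers stood in the last 40 bases of 1300 of 1741 protein-coding transcript ends (74.7%) matched to 3'UTR regions and of 1640 of 2143 (76.5%) matched to TTS regions. It stood in 59.5% of all 38939 annotated protein-coding transcript ends.

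The labels were checked against the GENCODE vM21 annotation, which the table's authors are not known to have used. The centre of a region lay inside an annotated 3'UTR for 94.2% of the 3'UTR label, and from 100 bases before to 1000 bases after a transcript end for 89.9% of the TTS label. Centres of TTS regions were a median of 487 bases past the end, while for 3'UTR regions the median offset was -971, that is, before it. The gene named in the table is the one with the nearest transcription start site (TSS). It was also the gene that ends at the region for 723 of 1881 matched 3'UTR regions (38.4%) and 1117 of 2392 matched TTS regions (46.7%). Most gene-end regions therefore carry the name of a neighbour, and where the names differ below, both are given. At TTS regions the gene that ends was protein-coding for 2151, a miRNA for 108 and a small nucleolar RNA (snoRNA) for 16. Another 206 TTS regions lay at the ends of more than 1 gene. Gene ends were also close to starts at times, since 331 TTS regions (13.2%) but 60 3'UTR regions (3.09%) had an annotated start within 1 kb.

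H3K27ac values are the authors' deposited log2 values, 1 pooled value per group, so no difference that involves DKO cells has a replicate check or a p-value. The exception is formative against naive WT, for which the table gives a DiffBind test over the 2 libraries of each group. No single-library value was used, and the total reads per library are not known. Neither Kmt2c nor Kmt2d had a gene-end region. Their deposited RNA values, from libraries outside this series, were lower in DKO: for Kmt2c 5.61, 5.21, 4.46 and 4.30, and for Kmt2d 4.86, 5.16, 4.13 and 4.31, in naive WT, formative WT, naive DKO and formative DKO. This order of the groups is kept for every set of 4 values below. No source used here gives the deleted parts, so this is no check of the deletion. RNA of the naive marker Esrrb (8.60, 4.62, 7.71 and 5.64) and of the formative marker Fgf5 (-0.27, 5.82, -0.35 and 5.40) followed the state labels. Of the pluripotent markers, Sox2 was at 7.94 and Nanog at 8.71 in naive WT. Pou5f1, however, was at only 3.25, 2.84, 2.49 and 2.64, below the naive WT median of 3.98 over all genes. The reason for this low value was not tested. Markers of other cell types had few RNA values, for 2 of 3 fibroblast, 1 of 3 endoderm and 1 of 2 neural genes. The neural factor Sox1 was at 2.45, 2.82, 4.40 and 5.32, higher in both DKO groups. Col1a2, a fibroblast collagen, was at -1.59, 0.98, -0.20 and 3.00, and thus highest in formative DKO. Thy1 (0.24, 1.79, -0.35 and -1.03) and the endoderm factor Gata6 (-1.59, -0.76, -0.54 and 0.26) were at 1.79 or below in every group. The part of other cell types in the DKO differences below was not tested.

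The median H3K27ac of gene ends was highest in formative WT. The median log2 value at 3'UTR regions was 7.32, 8.10, 7.33 and 7.30, over the 1864 regions above 0 in all groups. At TTS regions it was 7.46, 7.99, 7.47 and 7.48, over 2434 regions. The other groups were close together for each label. All regions had 7.58, 8.03, 7.29 and 7.27, and promoters 8.21, 8.03, 8.78 and 8.67, with the DKO groups highest. The remaining 79 3'UTR and 78 TTS regions were listed at 0 in at least 1 group, with 45 and 42 of them at 0 in naive WT.

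**Figure D1:**
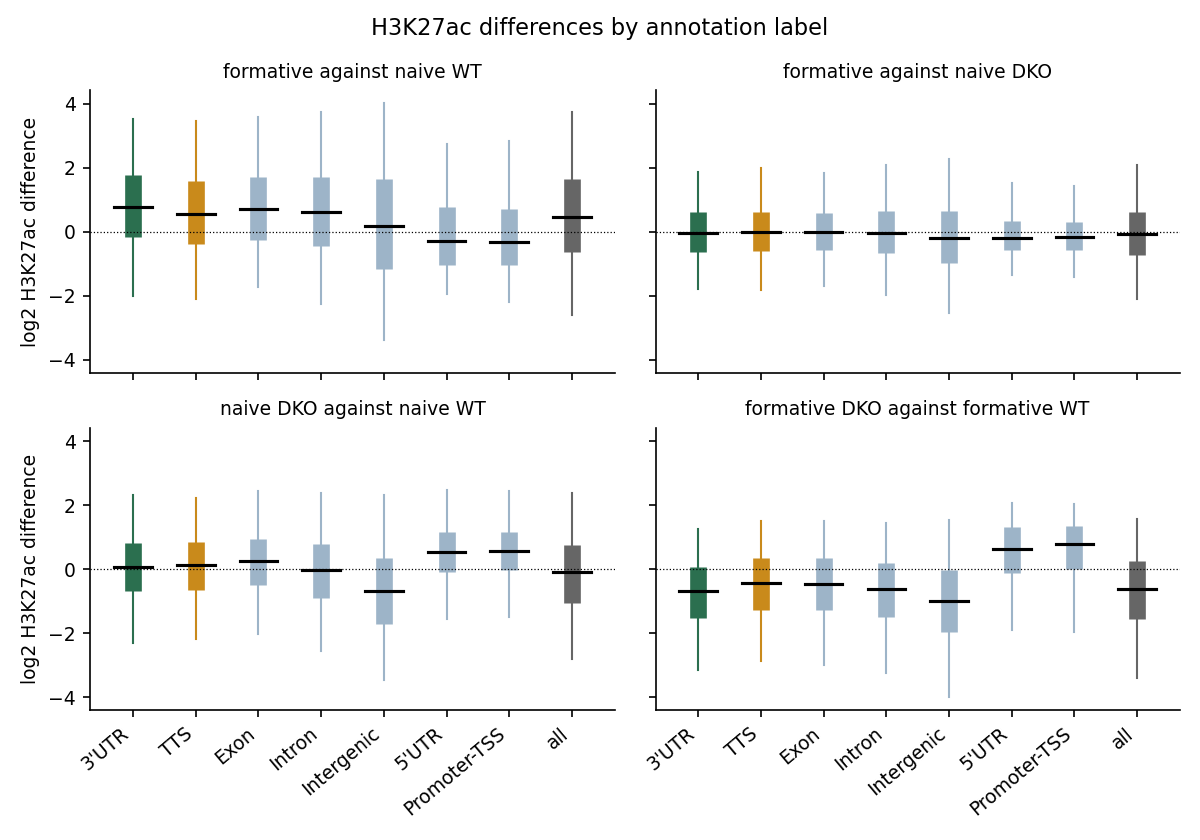
H3K27ac log2 differences (y axis) by annotation label (x axis) in each of 4 comparisons of pooled group values. Black lines are medians, thick bars run from the 25th to the 75th percentile and thin lines from the 5th to the 95th. In formative against naive WT the 3'UTR median is 0.78 and the promoter median -0.31, and in formative DKO against formative WT they are -0.69 and 0.79.

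Between the naive and the formative state of WT cells, gene ends rose more often than they fell. In the authors' deposited table, 445 of 1943 3'UTR regions rose (22.9%) and 175 fell (9.01%) at a DiffBind adjusted p under 0.05. For TTS regions the authors' deposited table gave 507 of 2512 that rose (20.2%) and 291 that fell (11.6%). Of all regions, 20.8% rose and 15.8% fell. The share that rose was thus near that of all regions, and the share that fell was lower for both labels. Among those called, the median fold in the authors' deposited table was 2.66 and -2.05 for 3'UTR regions and 2.35 and -1.80 for TTS regions, on the log2 scale. Exons had 22.6% that rose and 9.04% that fell, while intergenic regions had 20.1% and 22.4%.

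The share that fell was below that of all regions in each of 4 level classes of equal size. Regions above 0 in all groups were classed by their H3K27ac level over all regions, the mean of the 4 values with the apparent division by width undone. In the lowest class 3.83% of 3'UTR and 4.22% of TTS regions fell, beside 5.55% of all regions in it. For the highest class these shares were 21.7%, 21.4% and 36.0%. Rises were 31.1%, 27.5% and 29.1% in the lowest class and 18.8%, 19.5% and 13.7% in the highest. No test was made of these differences between labels.

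**Figure D2:**
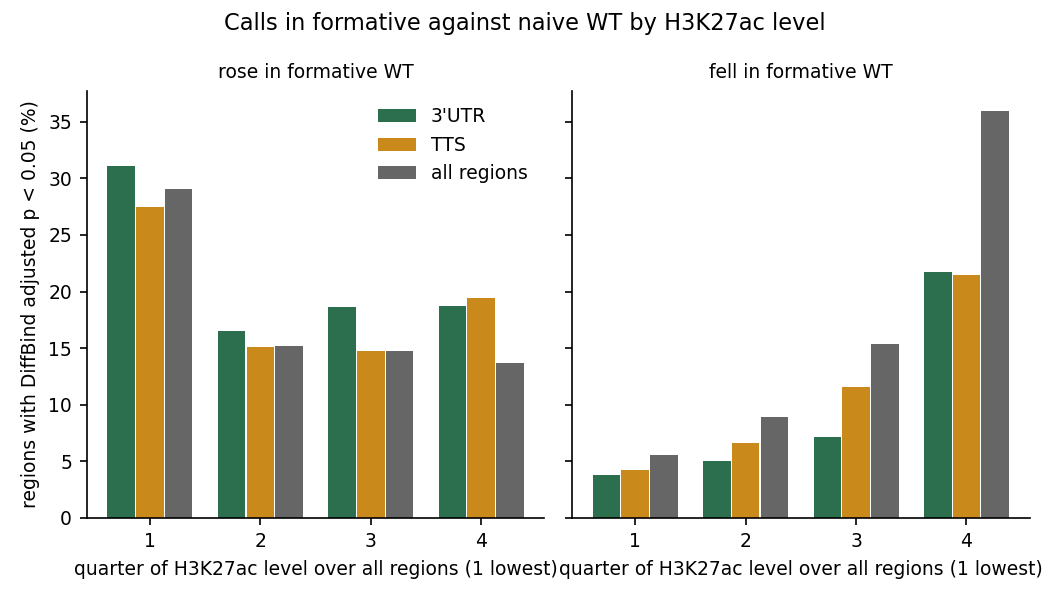
Share of regions (y axis, %) called by the authors' DiffBind test as risen (left) or fallen (right) in formative against naive WT, by class of H3K27ac level over all regions (x axis). Bars are 3'UTR regions, TTS regions and all regions. In the highest class 21.7% of 3'UTR regions fell against 36.0% of all regions.

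Falls at gene ends included the naive network. The 3'UTR region of Fgf4 at chr7:144862691-144865679 had log2 values of 8.69, 5.09, 8.57 and 6.79, so that both formative groups were below both naive groups and formative DKO was 1.70 above formative WT. In the authors' deposited table it fell by 3.70 (DiffBind adjusted p = 1.12e-39). RNA of Fgf4 was at -0.98 in formative against naive WT and -1.15 in DKO. The 3'UTR region of Esrrb at chr12:86518101-86520929 followed the same order, at 7.89, 4.48, 7.84 and 5.86. It fell by 3.75 in the authors' deposited table (DiffBind adjusted p = 1.84e-25), while RNA of Esrrb was at -3.98 in WT and -2.07 in DKO. Just past Sox2, which encodes a core pluripotency factor, the TTS region at chr3:34652497-34654292 was at 8.43, 5.65, 7.56 and 6.83. The Sox2 region fell by 2.64 in the authors' deposited table (DiffBind adjusted p = 2.29e-08), with RNA at -0.92 in WT and 0.02 in DKO.

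Other pluripotency genes had gene ends that did not pass the test. Nanog, a homeobox factor of the naive network, had 6.93, 6.61, 6.95 and 5.87 at a 3'UTR region of 6988 bases. Its fold of -0.31 in the authors' deposited table did not pass the test (DiffBind adjusted p = 0.27), although Nanog RNA was at -1.80 in WT. Downstream of Pou5f1, which encodes OCT4, the TTS region had 7.87, 8.33, 9.08 and 7.75, with a fold of 0.37 in the authors' deposited table (DiffBind adjusted p = 0.73). Dppa4, a chromatin protein of pluripotent cells, had 6.23, 6.56, 5.98 and 5.39 at its 3'UTR, with a fold of 0.24 in the authors' deposited table (DiffBind adjusted p = 0.582).

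Larger falls than these were found at genes outside the pluripotency lists. The TTS region of Gabrp, a GABA-A receptor subunit, at chr11:33549067-33552627 was at 9.56, 4.84, 6.52 and 4.11 and fell by 4.75 in the authors' deposited table (DiffBind adjusted p = 1.71e-77). RNA of Gabrp was at -0.47 in formative against naive WT. Past Ssb, which encodes the La RNA-binding protein, the TTS region had 8.63, 4.17, 6.78 and 7.51. It fell by 4.48 in the authors' deposited table (DiffBind adjusted p = 2.68e-13), yet RNA of Ssb was at 0.15. At Ssb formative DKO was above naive DKO, the reverse of the order in WT.

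Of gene ends that rose, Krt18 had the largest difference among those named. Krt18 and Krt8 encode the keratin pair of simple epithelia. The Krt18 TTS region at chr15:102031394-102032627 had 1.98, 8.25, 5.24 and 7.92 and rose by 7.06 in the authors' deposited table (DiffBind adjusted p = 2.24e-07). Krt8 had 7.52, 10.55, 7.65 and 9.47 at a TTS region of 367 bases that rose by 3.17 in the authors' deposited table (DiffBind adjusted p = 0.0354). RNA was 2.64 higher for Krt18 and 1.02 higher for Krt8 in formative than in naive WT, and formative against naive DKO gave -0.19 and -0.21. In naive DKO, RNA of Krt18 was 2.95 above naive WT, and its region was 3.26 above. The DiffBind concentration of the Krt18 region, a measure of WT signal, was -0.41 in naive and 6.65 in formative WT. The size of these H3K27ac differences at Krt18 thus rests on a naive WT value near the floor.

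Several other regions that rose were lowest in naive WT, with both DKO groups above it. They were chosen for a large rise in WT, so a low naive WT value is partly fixed by the choice. Past Rps6kl1 the TTS values were 3.60, 7.74, 7.08 and 7.59, a rise of 4.50 in the authors' deposited table (DiffBind adjusted p = 1.05e-06). A TTS region named for Nabp1, at the end of the long noncoding gene Gm17767, had 4.17, 8.42, 7.61 and 8.84. It rose by 4.35 in the authors' deposited table (DiffBind adjusted p = 7.49e-16). In the 3'UTR of Atxn1l the values were 3.73, 7.39, 5.76 and 6.68, with a rise of 4.22 in the authors' deposited table (DiffBind adjusted p = 1.53e-05). The 3'UTR of S1pr2, a sphingosine phosphate receptor, holds a region named for its neighbour Dnmt1. That region had 5.27, 8.68, 7.53 and 7.28 and rose by 3.53 in the authors' deposited table (DiffBind adjusted p = 2.07e-12). RNA of S1pr2 was at -0.40 in formative against naive WT, against the direction of its region. Naive WT DiffBind concentrations were low, at 3.08 for Rps6kl1, 3.48 for the Nabp1 region and 3.36 for Atxn1l. The Dnmt1 region had 4.16, beside a median of 5.76 over all regions.

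**Figure D3:**
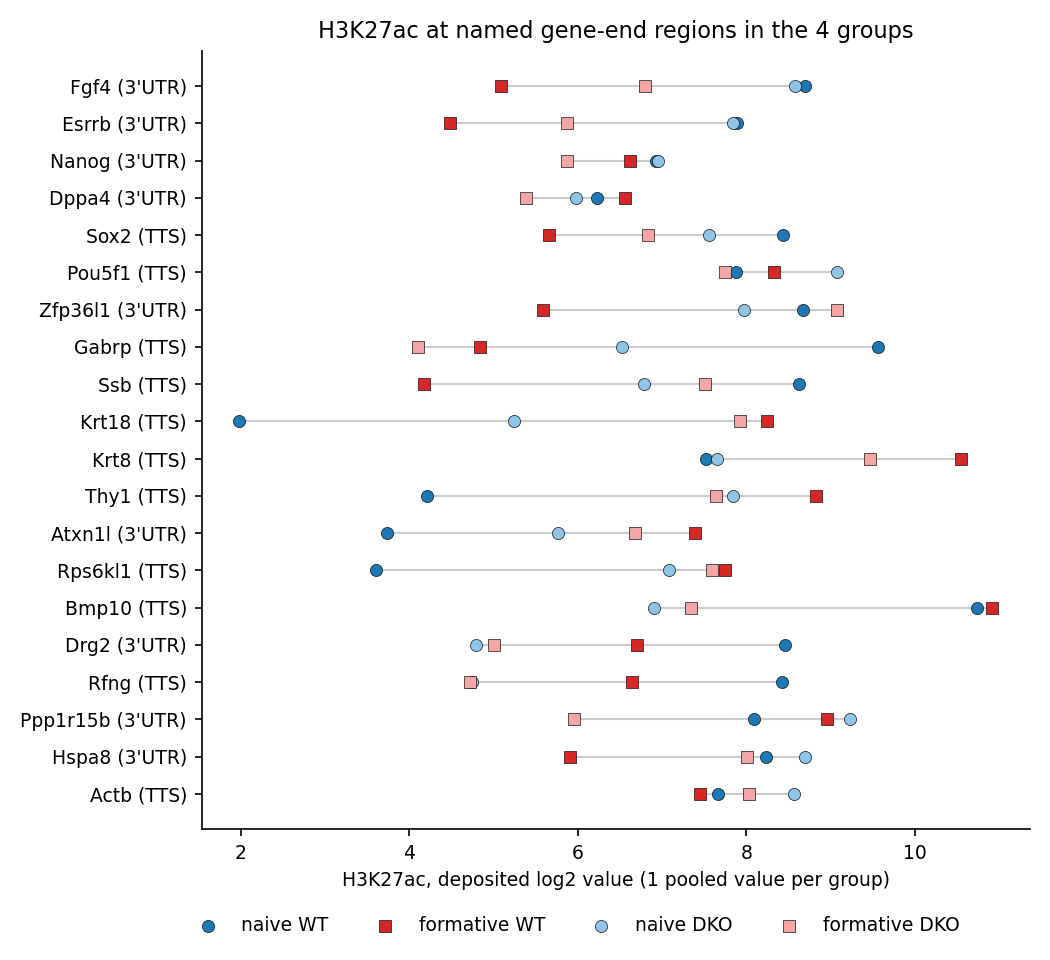
Deposited H3K27ac log2 values (x axis) of 20 named gene-end regions (y axis, gene and label), with 1 pooled value for each group and no error. Circles are naive and squares formative cells, dark for WT and light for DKO. Krt18 spans 1.98 in naive WT to 8.25 in formative WT, and at Bmp10 both DKO groups lie below both WT groups.

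On the deposited scale the difference between states had a smaller median in DKO than in WT. By pooled values the median log2 difference of formative against naive cells at 3'UTR regions was 0.78 in WT and -0.02 in DKO, and at TTS regions 0.56 and 0.00. Over all regions it was 0.48 and -0.07. The contrast between WT and DKO at TTS regions was thus near that of all regions and depends on the scaling. In DKO 284 of 1864 3'UTR regions (15.2%) were higher in the formative state by 2-fold or more, and 278 (14.9%) were lower by as much. Of 2434 TTS regions, 353 (14.5%) were higher and 342 (14.1%) lower, beside 16.6% and 17.9% of all regions. The median of all regions itself moved with scaling, for WT from 0.48 to 0.92 when groups were scaled to their sum and to 0.20 after quantile normalization.

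Regions called in WT were followed in the DKO libraries, which the call did not use. The 3'UTR regions that rose had a pooled median of 2.45 in WT and 0.27 in DKO, where 87 of 392 (22.2%) were at least 2-fold higher and 38 lower. Risen TTS regions had 2.17 and 0.39, with 101 of 458 (22.1%) higher and 36 lower. For 3'UTR regions that fell the medians were -2.08 and -0.56, with 50 of 171 (29.2%) lower in DKO. At TTS regions that fell they were -1.83 and -0.49, with 74 of 288 (25.7%) lower. The regions were chosen for a large value in WT, so a smaller value in other libraries is partly fixed by the choice. All regions called in WT had 2.59 and 0.31 where they rose and -2.0 and -0.60 where they fell, so the medians at gene ends were near those of the whole table.

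The largest differences between states in DKO were of regions where 1 DKO group was low. In the 3'UTR of Slc35f6, at a region named for Cenpa, the values were 7.33, 7.81, 4.45 and 7.94. The 3'UTR of Bcl2l11, a pro-apoptotic BCL2 family member, had 6.28, 7.21, 3.50 and 6.66. Naive DKO was the low group at both. In the other direction Ppp1r15b, a regulatory subunit of the eIF2alpha phosphatase, had 8.09, 8.96, 9.23 and 5.95 at its 3'UTR, with formative DKO low. Cdh16, a kidney cadherin, ends at a TTS region named for Pdp2 that had 9.13, 7.30, 8.11 and 4.63. The last of these also fell by 1.84 in WT in the authors' deposited table (DiffBind adjusted p = 0.000253), and the other 3 did not pass the test. These regions were chosen for their difference in DKO, which has no replicate check.

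In the naive state the medians of gene ends were near 0 between DKO and WT. The median log2 difference of naive DKO against naive WT was 0.05 at 3'UTR and 0.12 at TTS regions, beside -0.10 over all regions. At least 2-fold higher were 394 3'UTR (21.1%) and 494 TTS regions (20.3%), beside 19.2% of all regions. At least 2-fold lower were 344 (18.5%) and 435 (17.9%), beside 26.3% of all regions. Intergenic regions had a median of -0.68 and promoters 0.58, with gene ends and introns (-0.02) between them. The TTS median turned to -0.46 and the 3'UTR median to -0.52 when groups were scaled to the promoter median, under which that of all regions was -0.67. By chromosome, the medians were lowest on chromosomes 6 and 8. They were -0.57 and -0.49 there for 3'UTR regions, and -0.37 and -0.29 for TTS regions. The regions named for Bmp10 (chromosome 6), Mir140 and Pdp2 (chromosome 8) lie on these chromosomes. What lowers whole chromosomes in DKO was not tested.

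Among the gene ends lowest in naive DKO against naive WT, several were lower in both DKO groups. Arhgap25 ends at a TTS region named for Bmp10 at chr6:87456956-87458262, with 10.73, 10.91, 6.91 and 7.34. Both DKO groups were lower there, by 3.82 and 3.57, while formative against naive WT did not pass the test in the authors' deposited table (fold 0.26, DiffBind adjusted p = 0.52). H3K4me1 at that region was -3.06 in naive and -1.46 in formative DKO against WT. Rfng, a fringe glycosyltransferase that modifies Notch, had 8.43, 6.64, 4.75 and 4.71 past its end, with H3K4me1 at -1.20 and -1.30. The 3'UTR of Gid4, a substrate receptor of an E3 ligase, holds a region named for Drg2 with 8.46, 6.70, 4.79 and 5.00, and H3K4me1 at -2.18 and -1.35. At these 3 regions both H3K27ac and H3K4me1 were lower in DKO in both states. Not every region of this choice did so. At the TTS region named for Zfp407, past Cndp1, H3K27ac was at -3.14 in naive and -2.40 in formative DKO against WT, but H3K4me1 at 0.12 and -0.26. Soft-masked repeat sequence makes up 93.0% of that region.

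Dpys, which encodes a pyrimidine-degrading enzyme, had the largest RNA difference among these. Its 3'UTR holds a region named for Dcstamp at 7.54, 4.62, 4.34 and 2.90. RNA of Dpys was at -5.65 in naive DKO against naive WT and at -0.59 in the formative state. Wwp2, an E3 ubiquitin ligase, had 7.55, 8.65, 4.32 and 6.05 at a 3'UTR region named for Mir140, while its RNA was at -0.43 in each state.

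The next regions were chosen for a higher value in naive DKO than in naive WT, so a low naive WT value is partly fixed by the choice. Nab2 names a TTS region at the end of Stat6, a cytokine-response factor, with 5.44, 8.42, 10.20 and 9.92. At the 3'UTR of Sertad2 the values were 5.66, 9.13, 10.15 and 9.98. In both cases naive WT was the low group. The 3'UTR of Gigyf1, named for Mir6418, had 6.28, 9.53, 9.47 and 9.24, with the groups other than naive WT close together. It rose by 3.38 in WT in the authors' deposited table (DiffBind adjusted p = 3.31e-07). Naive WT enters both the comparison of states in WT and that of genotypes in naive cells, so a low value there shows in both.

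In the formative state gene ends had lower medians in DKO, as all regions did. The median of formative DKO against formative WT was -0.69 at 3'UTR and -0.45 at TTS regions, beside -0.63 over all regions. At least 2-fold lower were 741 3'UTR (39.8%) and 776 TTS regions (31.9%), beside 39.3% of all regions. At least 2-fold higher were 135 (7.24%) and 277 (11.4%), beside 11.2% of all regions. Relative to the median of all regions the 3'UTR label was at -0.06 and the TTS label at 0.18. With loess offsets on level the medians were -0.08 and 0.04. The TTS median thus changed sign with these offsets. Among regions above the median level the medians were -0.18 and -0.02. Chromosomes 6 and 8 again had the lowest medians, -1.09 and -1.24 for 3'UTR and -0.92 and -0.92 for TTS regions.

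Among gene ends lower in formative DKO, the next 3 had somewhat more H3K27ac in formative than in naive WT by pooled values. They were chosen for a formative DKO value below formative WT, so a high formative WT value is partly fixed by the choice. Smco1 ends at a TTS region named for Rnf168, a ubiquitin ligase of the DNA damage response, with 9.27, 9.54, 9.13 and 6.71, where formative DKO alone was low. The 3'UTR of Hemk1 had 8.46, 8.64, 6.97 and 5.68. Pomt2, an O-mannosyltransferase, has a 3'UTR region named for Ngb with 6.86, 7.83, 7.22 and 4.96. RNA of Hemk1 was at -0.09 in formative DKO against WT.

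Gene ends higher in formative DKO included ones that fell in WT, and formative WT enters both comparisons. Cntf, a ciliary neurotrophic factor, had 9.71, 7.65, 9.67 and 11.44 past its end. Zfp36l1, which promotes decay of AU-rich mRNAs, had 8.68, 5.59, 7.97 and 9.08 at its 3'UTR and fell by 3.18 in WT in the authors' deposited table (DiffBind adjusted p = 3.2e-05). Its RNA was 1.26 higher in formative DKO than in formative WT. Gpx1, a glutathione peroxidase, had 8.82, 6.64, 9.44 and 9.54, and Cnbp, whose end carries a region named for Isy1, had 9.11, 5.78, 8.20 and 8.75. Formative WT was the low group at Cntf, Zfp36l1, Gpx1 and Cnbp. RNA of Gpx1 was at -0.27 and of Cnbp at 0.25 in formative DKO against WT. Erp29, whose ESRRB motif is printed above, also had formative WT as the low group, at 9.96, 6.72, 10.36 and 9.81. It was chosen after its values were seen. At Fgf4 and Sox2 formative DKO was above formative WT by 1.70 and 1.18.

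The difference varied with distance from a TSS. TTS regions under 1 kb from a TSS, 250 of them, had a median of 0.18 in formative DKO against formative WT, and 98% of this class had an annotated start within 1 kb. The median was -0.18 at 1 to 5 kb, -0.52 at 5 to 10 kb and -0.66 at 10 kb or more. For 3'UTR regions it was -0.17, -0.71 and -0.81 at 1 to 5 kb, 5 to 10 kb and 10 kb or more, and only 5 such regions lay under 1 kb. In naive DKO against naive WT the TTS medians ran from 0.45 under 1 kb to -0.04 at 10 kb or more. Of TTS regions, 16.2% fell in WT under 1 kb from a TSS and 9.29% at 10 kb or more. For 3'UTR regions the shares that fell were close together, at 10.1%, 9.40% and 8.61% from 1 to 5 kb to 10 kb or more, with 0 of the 5 under 1 kb. The median DiffBind concentration in the authors' deposited table, a measure of WT signal, declined over the TTS classes from 6.79 to 5.93. Its part in the trend was not tested.

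A small class of TTS regions lay past snoRNA genes. These are short RNAs processed from introns of other genes, so their ends lie inside a host gene. Of 16 such regions 6 fell in WT and 0 rose by adjusted p of DiffBind in the authors' deposited table, and 7 were lower and 1 higher at an unadjusted p under 0.05. The shares that fell and rose were 11.6% and 20.2% of all TTS regions and 15.8% and 20.8% of all regions. The median of the snoRNA class in formative DKO against formative WT was 0.95, with 43.8% at least 2-fold higher and 0 lower, beside 11.2% and 39.3% of all regions. At the 106 regions past miRNA genes the median was -0.21, and at the 2088 past protein-coding genes -0.44. This difference between classes was not tested. By name, the medians were -0.43 where the gene that ends is also the nearest and -0.44 where it is another gene for TTS, and -0.71 and -0.68 for 3'UTR.

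Within a gene, the end and the promoter had medians of opposite sign in formative cells. Genes were first paired through the nearest TSS, the gene name of the table. Over 545 genes with both a 3'UTR and a promoter region, the median of formative DKO against formative WT was -0.62 at the end and 0.78 at the promoter, and the end was below the promoter in 436 (80.0%). For 709 genes with a TTS and a promoter region the medians were -0.40 and 0.81, with the end below in 548 (77.3%). Pairing each region with the gene that ends there, an alternative added after the values were seen, gave 527 of 611 genes (86.3%) for 3'UTR and 656 of 828 (79.2%) for TTS. The gap shrank with level-dependent offsets but kept its sign. Its median was -1.22 for 3'UTR and -1.04 for TTS as deposited, and -0.58 and -0.51 with loess offsets, an alternative also added later. A shift of all values by a constant leaves this gap as it is, but the sign of either median depends on the scaling.

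The same pairs differed the other way between states in WT. There the 3'UTR median was 0.69 and the promoter median -0.23, and for TTS they were 0.46 and -0.31. Formative WT enters both comparisons, so these are not separate observations. In DKO cells the end and promoter medians of formative against naive were -0.04 and -0.14 for 3'UTR and 0.02 and -0.16 for TTS. In naive DKO against naive WT they were 0.08 and 0.58, and 0.08 and 0.61. Across genes with the end matched to the gene, end and promoter differences of formative DKO against WT had a Pearson r of 0.25 for 3'UTR and 0.31 for TTS, as a description of genes that share libraries.

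**Figure D4:**
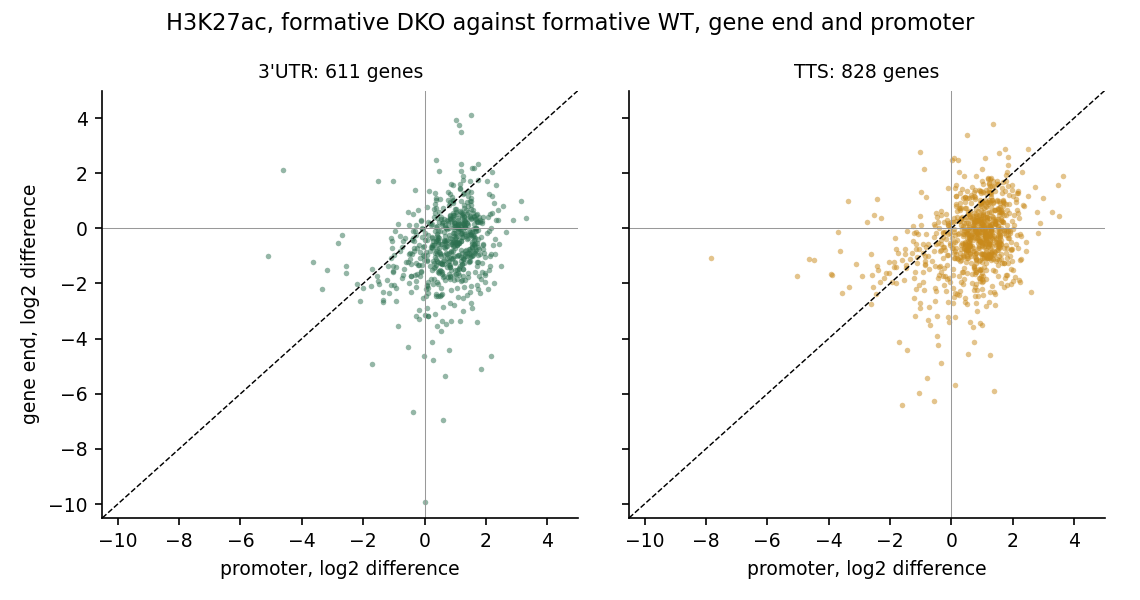
H3K27ac log2 difference of formative DKO against formative WT at the gene end (y axis) and at the promoter of the same gene (x axis), 1 point per gene, with regions paired to the gene that ends there. The dashed line marks equal differences. Of 611 genes with a 3'UTR region 527 lie below it, and of 828 with a TTS region 656.

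Median RNA of genes with gene-end regions was above that of all genes with a value. In naive WT it was 4.99 for genes with a 3'UTR region at their end and 4.94 for those with a TTS region. Paired through the nearest TSS, the medians were lower, at 4.51 and 4.44. Over all 9781 genes with a value the median was 3.98. RNA values are the authors' deposited values from libraries outside this series, on what reads as a log2 scale. The median RNA difference of formative DKO against formative WT was 0.03 and 0.02 at genes with such a region at their end and 0.06 over all genes.

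H3K27ac at a gene end went weakly with RNA. Across genes with the nearest TSS, Pearson r between the H3K27ac and RNA differences of formative against naive WT was 0.20 for 1041 genes with a 3'UTR region and 0.25 for 1306 with a TTS region, and Spearman rho was 0.19 and 0.23. For formative DKO against WT r was 0.10 and 0.11. Groups by RNA of the gene that ends there, chosen after the values were seen, give the size. In formative against naive WT, 159 3'UTR regions of genes with RNA higher by at least 1 had an H3K27ac median of 1.53, and 84 of genes with RNA lower by at least 1 had -0.35. TTS regions gave 1.23 for 161 and -0.35 for 119. In formative DKO against WT, 3'UTR regions of genes with lower RNA had -1.58 (30 regions) and those of genes with higher RNA -0.55 (30 regions), and TTS regions -1.19 (44) and -0.58 (45). Genes with RNA within 1 of no change had -0.66 at 3'UTR (1241 regions) and -0.38 at TTS regions (1372). The TTS median for higher RNA was thus below that for little change, and the 3'UTR medians of these classes were close.

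H3K27ac changes also varied with the level of RNA. Of 3'UTR regions, 29.8% rose in WT where naive RNA of the gene that ends there was in the lowest of 4 classes and 12.6% in the highest, by the test in the authors' deposited table. Falls went from 8.28% to 17.2%. For TTS regions the shares that rose were 22.7% and 12.1%, and those that fell 11.5% and 18.6%. Medians of formative DKO against WT were -1.07 and -0.24 in the lowest and highest class for 3'UTR, and -0.50 and 0.00 for TTS. Naive DiffBind concentration in the authors' deposited table was 5.16 and 6.45 in these classes for 3'UTR and 5.82 and 6.45 for TTS. The part of signal in this pattern was not tested.

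H3K4me1 at gene ends had a lower median in naive DKO than in naive WT, and in formative cells a median near 0. The H3K4me1 columns are from libraries outside this series and their differences are on what reads as a log2 scale. In naive cells the median difference was -0.42 at 3'UTR and -0.32 at TTS regions, beside -0.31 over all regions. Differences of -1 or below were found at 368 3'UTR (19.7%) and 394 TTS regions (16.2%), beside 18.9% of all regions. In formative cells the medians were 0.03 and 0.06, with 183 (9.82%) and 235 (9.65%) at -1 or below, beside 15.5% of all regions. At 3'UTR regions the levels were 6.58, 6.14, 6.11 and 6.20, and at TTS regions 6.52, 6.18, 6.16 and 6.19, so naive WT was the high group and the others were close together.

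H3K27ac and H3K4me1 differences between genotypes went together weakly at gene ends. Where naive H3K4me1 was at -1 or below, the H3K27ac median of naive DKO against WT was -0.41 at 3'UTR and -0.30 at TTS regions. Within 1 of no change it was 0.17 and 0.18, and at 1 or above 0.49 (36 regions) and 0.55 (85 regions). All regions gave -0.89, 0.04 and 0.44, so the medians of gene ends with lower H3K4me1 were nearer 0, a difference that was not tested. In formative cells the medians were -1.06, -0.66 and -0.44 at 3'UTR and -1.17, -0.43 and 0.06 at TTS regions, beside -1.23, -0.57 and -0.13. Spearman rho between the marks was 0.24 for both labels in naive cells, and 0.18 and 0.27 in formative cells, across regions that share libraries.

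**Figure D5:**
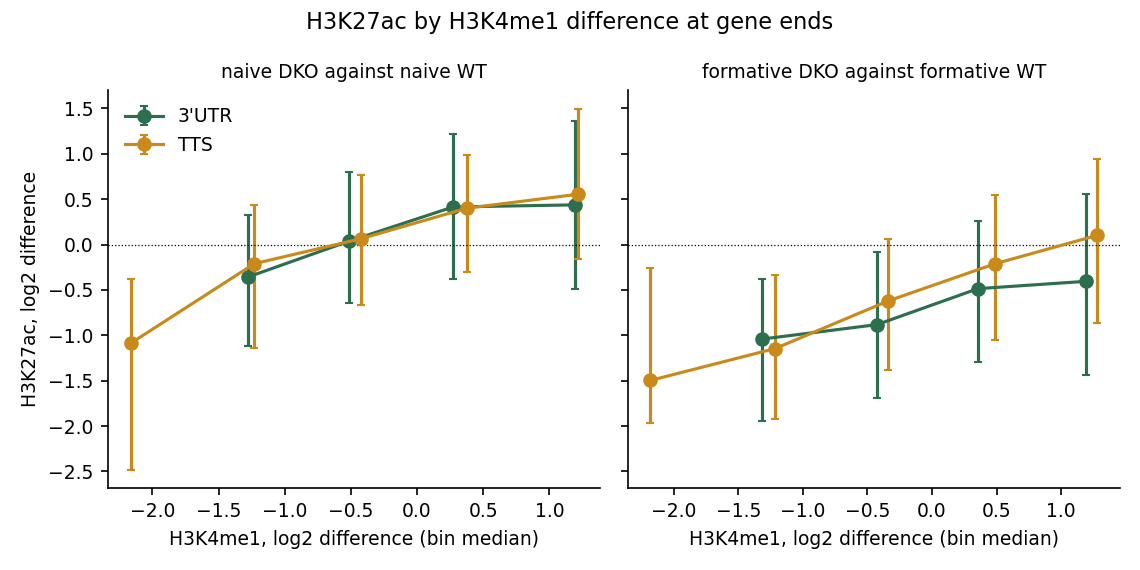
H3K27ac log2 difference (y axis) by H3K4me1 difference (x axis, median of each bin) between DKO and WT, for naive (left) and formative cells (right). Points are medians over regions and bars run from the 25th to the 75th percentile, for bins of at least 20 regions. In naive cells the TTS medians run from -1.09 in the lowest bin to 0.55 in the highest.

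Gene lists were counted by the nearest gene, and most had few gene-end regions. Their counts stand beside 20.8% of all regions that rose and 15.8% that fell, and 20.2% and 11.6% of TTS regions. Of the naive pluripotency list, 8 genes had 9 3'UTR regions, of which 4 fell and 1 rose in WT, beside 9.01% and 22.9% of all 3'UTR regions. It had 4 TTS regions, of which 2 fell, and 0 were higher by adjusted or unadjusted p of DiffBind in the authors' deposited table. Their pooled WT medians were -0.55 and -1.78. For the formative pluripotency list, 1 of 4 3'UTR regions rose, and of 4 TTS regions 1 rose and 1 fell, counts near the shares of all regions. Id1, a BMP target that inhibits bHLH factors, had 8.13, 7.29, 7.80 and 8.62 at its TTS region. Its RNA was 2.85 higher in formative WT, while the fold of -0.82 in the authors' deposited table did not pass the test (DiffBind adjusted p = 0.41).

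Sox12, a SoxC factor, had 6.96, 7.61, 7.09 and 6.94 at its 3'UTR and RNA 1.29 higher in formative WT. Of the cleavage and polyadenylation list, 1 of 6 TTS regions rose, near the 20.2% of all TTS regions, and the only 3'UTR region, that of Cpsf6, fell by 1.23 in the authors' deposited table (DiffBind adjusted p = 0.017). Cpsf6 encodes a subunit of cleavage factor I that binds upstream of poly(A) sites. Its values were 7.89, 6.72, 7.50 and 7.38. Among H3K4 methylation and H3K27 acetylation genes, 0 of 5 3'UTR regions passed at an adjusted or an unadjusted p of DiffBind under 0.05 in the authors' deposited table, and 1 of 3 TTS regions fell. Of transcription elongation genes, 0 of 1 3'UTR and 0 of 4 TTS regions passed the adjusted test, and 1 was lower at an unadjusted p under 0.05. The core pluripotency list had 1 3'UTR region, which fell and which is named for Tcf7l1 but lies in the 3'UTR of Kcmf1. Of its 3 TTS regions 1 fell, that of Sox2. The only primed and mesendoderm region, named for Nodal and past Eif4ebp2, did not pass the test, and neither did the neural and ectoderm TTS regions, of Tubb3 and of Kif18b, the latter named for Gfap. The trophoblast list had the 2 keratin regions given above, which both rose, and no primitive endoderm gene was nearest to a gene-end region. The TTS region of the single feeder marker with one, Thy1, rose by 4.96 in the authors' deposited table (DiffBind adjusted p = 0.00202), at 4.21, 8.82, 7.84 and 7.63. The DiffBind concentration of the Thy1 region was 0.28 in naive WT, so the size of the rise rests on a value near the floor. RNA of Thy1 was highest in formative WT too, at 1.79, and the part of other cells in this rise was not tested. Of housekeeping genes, 4 TTS regions did not pass the test and 1 3'UTR region fell, a region named for Hspa8 that lies in the 3'UTR of Clmp (8.23, 5.91, 8.69 and 8.01). Actb, the cytoskeletal actin, had 7.66, 7.44, 8.56 and 8.03 past its end.

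Among the genes named by both a 3'UTR and a TTS region at the highest summed level were Rnf7, Chrac1, Ftl1 and Mir6912. For Rnf7, a RING subunit of cullin ligases, both fell in the authors' deposited table, with a fold of -3.93 at a 16806-base region in the 3'UTR of Gm28729 (DiffBind adjusted p = 2.13e-67) and -2.22 past the end (DiffBind adjusted p = 6.61e-14). The 3'UTR values were 6.60, 2.64, 3.70 and 3.45 and the TTS values 8.0, 5.66, 6.77 and 6.45, with RNA of Rnf7 at -1.65 in formative against naive WT. Chrac1 names a pair of regions in Ago2, which encodes an Argonaute protein of the miRNA pathway. One is in its 3'UTR, and the one labelled TTS has an offset of -5515 bases from the annotated end, that is, before it. In formative WT its 3'UTR region fell by 0.75 in the authors' deposited table (DiffBind adjusted p = 0.0262), while the region labelled TTS was at 0.75 (DiffBind adjusted p = 0.0972). Ftl1, a ferritin light chain gene, names a TTS region past Bax, an apoptosis effector, which had 8.69, 7.49, 9.41 and 9.11 and fell by 1.20 in the authors' deposited table (DiffBind adjusted p = 0.00137). Its other region, in the 3'UTR of Gys1, a glycogen synthase, had 7.40, 6.64, 7.98 and 7.51. Its fold of -0.75 in the authors' deposited table did not pass the test (DiffBind adjusted p = 0.0598). Formative WT was the low group at both. Neither region named for Mir6912 passed the test, with folds in the authors' deposited table of 0.09 in the 3'UTR of Gm49322 (DiffBind adjusted p = 0.866) and 0.95 at the TTS (DiffBind adjusted p = 0.56).

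Sequence composition was compared between labels. The central 300 bases had a median GC content of 50.3% at 3'UTR and 50.0% at TTS regions, beside 49.0% of all regions. Soft-masked sequence made up more than 50% of 1.44% of 3'UTR and 5.29% of TTS regions, beside 13.5% of all regions. Of 14 motifs searched in that window, the GC box (GGGCGGG), which SP and KLF factors bind, was in 4.22% of 3'UTR and 4.70% of TTS regions, beside 5.97% of all regions. Its share was 11.6% among TTS regions at least 2-fold higher in formative DKO and 2.96% among those at least 2-fold lower, beside 13.9% and 4.33% of all regions so classed. The GRHL motif (AACCGGTT) was in 1 TTS region and in no 3'UTR region. The motifs were chosen after the values were seen, and no test was made.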

How the data were processed

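H3K27ac CUT&Tag was measured in 8 libraries, 2 in each of 4 groups. The authors deposited 1 table of regions with 1 pooled log2 value of H3K27ac per group. Its columns pair with groups, not libraries, so no value has an SD. Per the submitters' processing notes, Trim Galore, Bowtie2, SEACR, DiffBind and deepTools were used with build mm10, and no version or setting is given in the sources used here. The deposited log2 values fit log2(value + 1), and within a group they fell with region width as if divided by it 2 times. The level of a region is therefore the mean of its 4 values plus 2 times log2 width. The log2 fold, p-value and FDR of formative against naive WT are those of DiffBind as the authors deposited them. H3K4me1, RNA and DiffBind concentration columns are treated as a score, since the authors' deposited table does not state their log base; the first 2 come from libraries outside this series. Another 4 RNA columns of other genotypes were not used. Library depth is unknown, so no interval could be given.

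Members and gene lists were chosen with earlier results of these data known. Differences of group values were taken over regions above 0 in all groups, and at least 2-fold means a log2 difference of at least 1, with no test. The change called rose or fell has a DiffBind adjusted p under 0.05. Named regions were, for each label and comparison and above the median level, the 4 with the largest difference each way, the 4 of highest level, up to 3 per gene list, and 5 genes with both labels. Single-gene text beyond these was chosen after values were seen. Genes that end at a region came from GENCODE vM21 and sequence from GRCm38.p6 (RefSeq). Of 14 motifs, all were chosen after the values were seen. Scripts used Python 3.11.15, pandas 2.3.3, numpy 2.4.6, statsmodels 0.14.6 (loess, span 0.3) and pysam 0.24.0, and were tested on simulated data. Scaling, level, distance and threshold alternatives are given in the closing section. A few regions and 1 sequence window that these rules select are not reported here.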

Additional observations from a re-analysis of the deposited data

How the results depend on the processing

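The table holds 1 value per group, so leaving out each replicate could not be run. No paired analysis was possible because the columns carry groups and not single libraries. Counts of rises in WT were 445 for 3'UTR and 507 for TTS regions. They became 285 and 332 at an adjusted p under 0.01, 824 and 925 by a pooled difference of at least 2-fold, and 177 and 242 above the median level, where fewer regions enter. The 291 TTS regions that fell became 159 at 5 kb or more from a TSS, where fewer regions enter.

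Medians below are log2, given for 3'UTR and then TTS, and the cause of each shift was not tested. Formative against naive WT (0.78 and 0.56) gave 1.22 and 1.00 scaled to the sum, 0.95 and 0.73 scaled to promoters, 0.30 and 0.078 centred on all regions, 0.52 and 0.34 quantile normalized, 0.32 and 0.23 by loess offsets, and 0.26 and 0.17 above the median level. At 5 kb or more the TTS median was 0.71. Formative against naive DKO (-0.02 and 0.00) gave 0.26 and 0.28 by the sum and 0.094 and 0.12 by promoters, and the TTS median was 0.11 with quantile and 0.10 with loess offsets. Centred on all regions, the 3'UTR median in DKO was 0.044. Naive DKO against naive WT (0.05 and 0.12) gave 0.26 and 0.32 by the sum, -0.52 and -0.46 by promoters, 0.15 and 0.22 centred, and 0.21 and 0.26 with quantile normalization. The 3'UTR median was 0.18 with loess offsets, and the TTS median 0.0093 at 5 kb or more. Formative DKO against formative WT (-0.69 and -0.45) gave -1.32 and -1.08 by promoters, -0.058 and 0.18 centred, -0.24 and 0.026 quantile normalized, -0.084 and 0.044 by loess offsets, -0.80 and -0.61 at 5 kb or more, and -0.18 and -0.020 above the median level. H3K4me1 in naive cells gave -0.11 and -0.0094 centred, and -0.44 for TTS at 5 kb or more. In formative cells the TTS median was -0.057 at 5 kb or more.

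The gap between gene end and promoter was recomputed with loess offsets, quantile normalization and the gene that ends there, all added after the data were seen. In formative against naive WT it was 0.19, 0.46 and 1.12 for 3'UTR and 0.053, 0.25 and 0.69 for TTS. In formative against naive DKO loess and quantile gave -0.076 and -0.12 for 3'UTR and 0.010 and -0.015 for TTS. As deposited, the end was below the promoter in 45.3% of genes for 3'UTR and 45.1% for TTS. The sign of this small gap thus depends on the scaling. In naive DKO against naive WT loess gave -0.26 and -0.37. In formative DKO against formative WT the 3'UTR gap was -0.58, -0.92 and -1.36, and the TTS gap was -0.51 and -0.70 with loess and quantile. All 24 alternative correlations with RNA kept their direction.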

Other observations

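The TTS region of Wls, a Wnt-secretion factor, had the highest deposited values of the named gene ends at 18.92, 17.31, 18.55 and 17.85 in naive WT, formative WT, naive DKO and formative DKO. It is 346 bases wide, and 84.9% of it is soft-masked sequence. It fell by 1.59 in the authors' deposited table (DiffBind adjusted p = 9.16e-07).

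The TTS region of Crlf2, a cytokine receptor subunit, had 6.83, 5.55, 8.67 and 8.27, and its H3K4me1 was 1.39 higher in naive and 1.04 higher in formative DKO than in WT. The 3'UTR of Mid1, at a region named for G530011O06Rik, also had both marks higher in DKO. Its H3K27ac values were 7.95, 7.29, 10.27 and 10.69, and its H3K4me1 differences 1.85 and 1.60.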
